A study of Mus musculus with 17 samples.

Results

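The genes of the complement cascade examined were C1qa, C1qb, C1qc, C2, C3, C4b, C4a and Cfb. They were chosen by name, as the C1q chains, C2, C3, both C4 genes and factor B, and their symbols were matched to Ensembl identifiers, which gave 8 of the 38355 identifiers in the count files. PolyA RNA of hand-dissected hippocampus had been sequenced from untreated wild type C57BL/6J mice in 2 experiments. In the first, 5 single-end libraries of mice aged 3 months (3M) were set against 6 of mice aged 24 months (24M), and in the second, 3 paired-end libraries at 3M against 3 at 29 months (29M). All groups share strain, genotype, tissue and the absence of treatment, and differ in age and read type. As the 24M libraries are all single-end and those at 29M all paired-end, in a comparison of 24M with 29M age and read type cannot be told apart. The sample labels do not say whether replicates came from separate animals, so the p-values measure the spread between these samples. The whole hippocampus was used, and in such bulk samples fewer cells of a type and less RNA per cell cannot be told apart.

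Complement is a protein cascade best known from blood, but many of its components are also made in the brain. C1q, built from the A, B and C chains, recognises its targets and starts the classical pathway, in which C4 and C2 are cleaved to form an enzyme that splits C3. Fragments of C3 tag surfaces for uptake by phagocytes, and with factor B they form a second such enzyme in the alternative pathway. In brain tissue the C1q chains are made mostly by microglia, and tagging of synapses by C1q and C3 for removal is a known role of the cascade in development.

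The C1q chains are encoded side by side on chromosome 4 (GRCm38, all on the minus strand), where C1qb (ENSMUSG00000036905, chr4:136880129-136886187), C1qc (ENSMUSG00000036896, chr4:136889804-136893065) and C1qa (ENSMUSG00000036887, chr4:136895917-136898803) lie within 18.7 kb. The stretches of 250 bases before the start sites of C1qb (chr4:136886201-136886450) and C1qc (chr4:136892915-136893164) are shown because these neighbours rose together at 29M. They are RefSeq promoters of GRCm38.p6, written 5′ to 3′ on the minus strand, with motif matches in capitals.
C1qb: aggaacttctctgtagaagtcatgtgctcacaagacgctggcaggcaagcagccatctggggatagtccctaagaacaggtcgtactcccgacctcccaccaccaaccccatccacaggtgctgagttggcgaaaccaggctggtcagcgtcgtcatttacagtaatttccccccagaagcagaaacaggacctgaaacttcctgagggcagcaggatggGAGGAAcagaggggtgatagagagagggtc
C1qc: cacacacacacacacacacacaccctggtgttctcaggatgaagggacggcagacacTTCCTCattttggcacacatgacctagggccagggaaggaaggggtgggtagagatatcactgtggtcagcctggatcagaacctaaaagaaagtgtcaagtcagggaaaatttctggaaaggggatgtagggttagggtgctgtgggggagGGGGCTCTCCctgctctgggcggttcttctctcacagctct
In these stretches the SPI motif GAGGAA was matched at -30 to -25 from the start site of C1qb, and on the other strand at -193 to -188 of C1qc. A match to the NF-kB consensus lay at -41 to -32 of C1qc. The search, on both strands and up to 50 bases after the start, also covered STAT (TTCNNNGAA), IRF (GAAANNGAA) and AP1 (TGANTCA) motifs. None of these letters was found at C1qb, C1qc or C3, and at C3 no SPI or NF-kB match was found either. Among 32851 promoters of 300 bases, 28.3% hold the SPI motif, 8.46% the NF-kB consensus, 8.3% the STAT, 8.56% the IRF and 7.81% the AP1 motif.

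The other members lie on chromosome 17, also on the minus strand. C4b (ENSMUSG00000073418, chr17:34728380-34743882), C4a (ENSMUSG00000015451, chr17:34809092-34823464), Cfb (ENSMUSG00000090231, chr17:34856374-34862518) and C2 (ENSMUSG00000024371, chr17:34862604-34898265) share a stretch of 170 kb, and C3 (ENSMUSG00000024164, chr17:57203970-57228136) stands apart. C4a is a near copy of C4b that GENCODE M21 lists as a processed transcript, without a coding sequence. The longest transcripts of the pair were identical at 96.1% of 5367 aligned bases and differed at 207. To show how the genes can be told apart in reads, the 60 bases with the most differences are given below, from exon 21 of 41 of C4b (chr17:34735430-34735489) and the aligned stretch of C4a, with the 13 differing bases in capitals.
C4b: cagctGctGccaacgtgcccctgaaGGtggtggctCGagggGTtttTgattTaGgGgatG
C4a: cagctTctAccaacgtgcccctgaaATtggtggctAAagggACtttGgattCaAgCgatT
Of all 50-base windows of the C4b transcript, 35.2% are also found in C4a, and of 100-base windows 16.5%. A single read from such a window fits both genes, and HTSeq counts such a read for neither. In paired-end libraries the other read of a pair can still tell the genes apart. For C2 and Cfb the limit is another one, since the exons of the annotated gene Gm20547 run across both. Only 53.1% of the exon bases of C2 and 20.5% of those of Cfb belong to that gene alone, and Gm20547 itself had 0 counts over all 17 libraries. The levels of C2 and Cfb therefore rest on part of each gene. The C1q genes and C3 share no such window with another gene.

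Reads counted on genes numbered 19144461 to 28438296 per library at 3M single-end, 9213474 to 19756411 at 24M, 10977976 to 15054972 at 3M paired-end and 10991389 to 13563541 at 29M. Replicates 1 and 4 of the 24M group differed by less than the sampling noise (ratio of squared difference to counting variance 0.406, against 1.23 or more in the other pairs) and were counted as 1 sample, which leaves n = 5 at 24M. All 10 hippocampal marker genes were tested in both comparisons, with a median log2 difference of 0.09 in the first and 0.00193 in the second. Levels are CPM, the counts scaled to a common library size with TMM factors. The quasi-likelihood test of edgeR was run over 15683 genes at 24M and 15097 at 29M, with p-values adjusted over each set (Benjamini-Hochberg). A gene was called higher where the adjusted p did not exceed 0.05 and the log2 fold-change reached 0.5. By this rule, also applied to lower levels, 0 hippocampal markers were called. Of the 10, 7 lay above 0 at 24M and 5 at 29M. Among the others Wfs1 had -0.37 at 24M (edgeR, adjusted p = 0.0732) and -0.28 at 29M (edgeR, adjusted p = 0.0124).

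At 24M, 3 of the 8 members were called higher than at 3M, namely C1qa, C4b and C3, and at 29M 5 were, with C1qb and C1qc in addition. The share of all genes tested that was called higher was 1.34% in the first comparison and 1.34% in the second. C4b rose most, 4.52-fold at 24M and 6.9-fold at 29M, followed by C3, which rose 4.1-fold at both ages, whereas the C1q chains were at most 1.62-fold higher. No member was called lower. Of the remaining members, C2 was not called at either age, and C4a and Cfb fell below the filter on low counts at 24M and were not called at 29M. The median log2 fold-change over all genes was -0.00319 at 24M and -0.0021 at 29M.

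**Figure D1:**
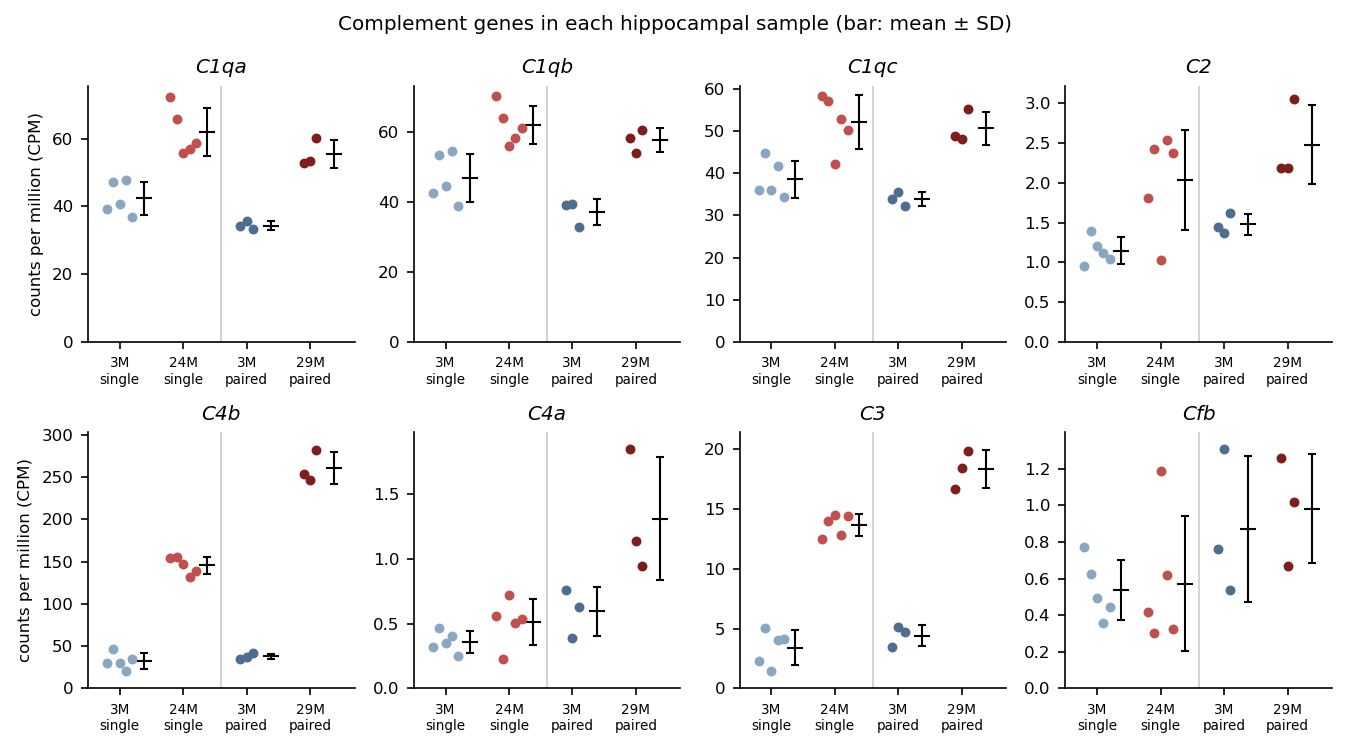
Level of each complement gene (CPM, axis from 0) in each sample of the 4 groups, with the mean and SD beside the points; the pair of 24M libraries counted as 1 sample is 1 point. C4b lies between 132 and 156 CPM at 24M and between 247 and 282 CPM at 29M, above every 3M sample, whereas the Cfb values of young and aged samples overlap in both experiments.

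C1qa encodes the A chain of C1q. In the single-end experiment its level at 3M was 39.2, 47.3, 40.8, 47.7 and 36.9 CPM, and at 24M it was 72.4, 65.7, 55.7, 56.8 and 58.6 CPM. In the paired-end experiment it was 34.2, 35.6 and 33.2 CPM at 3M and 52.8, 53.4 and 60.3 CPM at 29M. Every aged sample lay above every young one in both experiments, which held for 3.15% of all genes at 24M and 11.9% at 29M. C1qa was higher at both ages, with 0.55 ± 0.09 (SE) on the log2 scale at 24M (edgeR, adjusted p = 0.00627, n = 5 against 5) and 0.69 ± 0.07 at 29M (edgeR, adjusted p = 8.29e-05, n = 3 against 3). At 24M this call was close to the fold threshold, with values of 0.49 without 3M single-end replicate 5 and 0.48 without the pair of similar 24M libraries, both no longer called.

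C1qb, the B chain, had 42.6, 53.5, 44.7, 54.5 and 38.9 CPM at 3M and 70.2, 64.1, 56.1, 58.2 and 61.3 CPM at 24M, so that the lowest aged sample lay just above the highest young one. In the second experiment it had 39.2, 39.5 and 32.8 CPM at 3M and 58.4, 53.9 and 60.7 CPM at 29M, again without overlap. On the log2 scale it was 0.40 ± 0.09 higher at 24M (edgeR, adjusted p = 0.0301), under the fold threshold, and 0.63 ± 0.08 higher at 29M (edgeR, adjusted p = 0.000554).

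C1qc, the C chain, ranged from 34.3 to 44.7 CPM (median 36) at 3M and from 42.3 to 58.4 CPM (median 52.8) at 24M, where replicate 3 fell within the young range. At 29M it had 48.8, 48.1 and 55.2 CPM against 33.8, 35.5 and 32.2 CPM at 3M, with no overlap. The rise on the log2 scale was 0.44 ± 0.09 at 24M (edgeR, adjusted p = 0.0233) and 0.58 ± 0.07 at 29M (edgeR, adjusted p = 0.000554), so it was called at 29M but missed the fold threshold at 24M. Without a fold threshold 5 members passed at 24M, C1qb and C1qc among them, where 3.21% of all genes passed in the higher direction. Neither passed at 24M with the replicate number as a block (edgeR, adjusted p = 0.0688 for C1qb and 0.0713 for C1qc). The same held with the similar 24M pair left out (0.077 and 0.0642). Dropping 24M replicate 2 gave 0.0798 and 0.0701, and dropping 3M single-end library 1 gave 0.0733 and 0.0571. C1qb alone also missed 0.05 when 3M single-end library 3 (0.0544) or 24M replicate 6 (0.0512) was dropped. In the other alternatives both stayed under 0.05.

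Per kilobase of transcript the C1q chains stood close to each other. At 3M single-end, C1qb had 43 ± 6.3 CPM per kb (SD, n = 5), C1qa 40.8 ± 4.7 and C1qc 32 ± 3.68, and at 24M C1qa had 59.5 ± 6.8, C1qb 57 ± 5.06 and C1qc 43.3 ± 5.34. The SDs of C1qa and C1qb overlapped in every group, and C1qc was the lowest chain in all 4. Both chains come from the same samples, however, and their shares of the summed C1q level per length can be compared. At 3M single-end the share of C1qb lay above that of C1qa without overlap (35.9% to 38.4% against 34.5% to 35.6%). At 24M the ranges overlapped, with C1qa at 35.9% to 38.2% and C1qb at 34.8% to 36.8%, as they did in the paired-end groups. Written as a share of the summed C1q level per length, C1qa moved from 35.2% ± 0.432 at 3M to 37.2% ± 0.995 at 24M (SD, n = 5 each), with all 5 aged samples above the young ones (exact permutation test, two-sided, p = 0.00794, the smallest this design allows, and 0.0476 adjusted over the 6 tests of 3 chains at both ages). For C1qa at 29M the share was 35.9% ± 0.776 against 34.7% ± 1.08 and the groups overlapped (exact permutation p = 0.2, where 3 against 3 samples cannot go under 0.1). The shares of C1qb and C1qc did not pass at either age (adjusted p between 0.167 and 0.9, exact permutation test).

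C4b encodes the complement component C4, which is cleaved after C1q has bound its target. At 3M single-end its level was 29.6, 46.3, 30.4, 20.9 and 34.2 CPM, and at 24M 154, 156, 147, 132 and 139 CPM. At 3M paired-end it was 35.2, 37 and 41.5 CPM, and at 29M 254, 247 and 282 CPM. The lowest 24M sample, 132 CPM, lay far above the highest young sample, 46.3 CPM, and the groups were further apart at 29M. C4b rose by 2.18 ± 0.15 on the log2 scale at 24M (edgeR, adjusted p = 1.72e-05) and by 2.79 ± 0.06 at 29M (edgeR, adjusted p = 1.51e-11). It had the smallest p of all genes tested in both comparisons, and ranked 11 by log2 fold-change at 24M and 6 at 29M.

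C4a, which lies 65.2 kb from C4b, had 3 to 22 counts per library, far fewer than the 411 to 3882 of C4b. In the first experiment its level was 0.318, 0.468, 0.353, 0.408 and 0.247 CPM at 3M and 0.556, 0.228, 0.722, 0.509 and 0.538 CPM at 24M, where 4 of 5 aged samples lay above all young ones but the difference did not pass (exact permutation test, two-sided, p = 0.127). At 29M it had 1.85, 1.14 and 0.945 CPM against 0.764, 0.393 and 0.629 CPM at 3M, without overlap, as held for 11.9% of all genes. The log2 fold-change of 1.16 ± 0.38 did not pass (adjusted p = 0.127, edgeR).

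The share of C4a in the summed counts of C4a and C4b was lower in aged samples, although the mean level of C4a itself was not lower, at 0.51 against 0.359 CPM at 24M and 1.31 against 0.595 CPM at 29M. The share ranged from 0.716% to 1.91% in the 3M single-end libraries and from 0.145% to 0.488% at 24M, and from 1.05% to 2.12% in the 3M paired-end libraries against 0.334% to 0.723% at 29M. With the counts of the similar 24M libraries added up, the mean share was 1.17% ± 0.445 at 3M and 0.352% ± 0.126 at 24M (SD, n = 5 each), which differed by an exact permutation test (two-sided, p = 0.00794, adjusted over both ages 0.0159). At 29M the mean was 0.506% ± 0.198 against 1.56% ± 0.538 at 3M (n = 3 each, exact permutation p = 0.1, the smallest this design allows). C4b made up nearly all of the summed counts and was 4.52-fold higher at 24M and 6.9-fold higher at 29M. The lower share therefore follows largely from the rise of C4b and is not a separate result about C4a. Both genes share the windows described above, and how many C4b reads were counted for C4a was not tested.

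**Figure D2:**
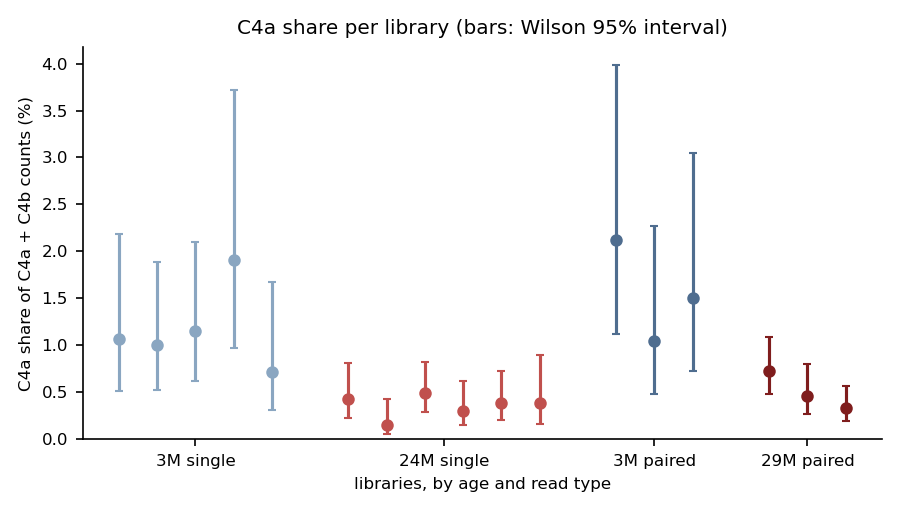
Share of C4a in the summed counts of C4a and C4b (percent, axis from 0) in each of the 17 libraries, by age and read type, with 95% Wilson binomial intervals that cover counting error only. The shares of aged libraries lie at 0.723% or less, and those of the young libraries of the same read type lie higher.

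C2 encodes the protease that joins C4 in the classical enzyme. It was sparse, with 17 to 45 counts per library. Its level was 0.955, 1.4, 1.2, 1.12 and 1.04 CPM at 3M and 1.81, 2.43, 1.03, 2.54 and 2.37 CPM at 24M, where 4 of 5 aged samples lay above the young ones and replicate 3 lay among them. In the second experiment it was 1.44, 1.37 and 1.62 CPM at 3M and 2.19, 2.19 and 3.05 CPM at 29M, without overlap, as held for 11.9% of all genes. The difference of 0.80 ± 0.24 on the log2 scale at 24M (edgeR, adjusted p = 0.0617) and that of 0.77 ± 0.24 at 29M (edgeR, adjusted p = 0.116) did not pass, so C2 was not called. At 24M the call depended on the setting, since C2 passed with DESeq2 (adjusted p = 0.0395), with all 4 groups in 1 edgeR fit (adjusted p = 0.0233), with the similar 24M libraries kept apart (edgeR, adjusted p = 0.0382) and without 24M replicate 3 (log2 fold-change 0.99, adjusted p = 0.0174, edgeR).

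C3, the central component on which all pathways meet, had 2.32, 5.04, 1.45, 4.03 and 4.1 CPM at 3M and 12.5, 14, 14.5, 12.8 and 14.4 CPM at 24M. In the second experiment it had 3.48, 5.1 and 4.68 CPM at 3M and 16.7, 18.4 and 19.9 CPM at 29M. The aged samples were close to each other and none overlapped with the young, among which replicate 3 of the single-end group was the lowest. C3 rose by 2.04 ± 0.24 on the log2 scale at 24M (edgeR, adjusted p = 0.000524) and by 2.04 ± 0.13 at 29M (edgeR, adjusted p = 3.43e-06). Choroid plexus also expresses C3 in the brain, and the summed level of 10 choroid plexus markers ranged from 2113 to 8782 CPM at 3M and from 4815 to 8043 CPM at 24M, and from 3591 to 6572 CPM and 4257 to 6465 CPM in the second experiment. None of these markers was called by edgeR and none had an unadjusted p under 0.05 at either age. The lowest choroid plexus sum, 2113 CPM, belonged to the 3M replicate with the lowest C3. Without that replicate the log2 difference of C3 at 24M was 1.82 ± 0.16 (edgeR, adjusted p = 0.000117).

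Cfb encodes factor B, the protease of the alternative pathway. It had 3 to 23 counts per library, with 0.773, 0.623, 0.494, 0.357 and 0.445 CPM at 3M and 0.417, 0.303, 1.19, 0.622 and 0.323 CPM at 24M. In the second experiment it had 0.764, 1.31 and 0.539 CPM at 3M and 1.26, 0.666 and 1.02 CPM at 29M. Young and aged samples overlapped in both. No difference was detectable at this depth (exact permutation p = 0.913 at 24M, and log2 fold-change 0.13 ± 0.37 at 29M with adjusted p = 0.901 by edgeR).

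**Figure D3:**
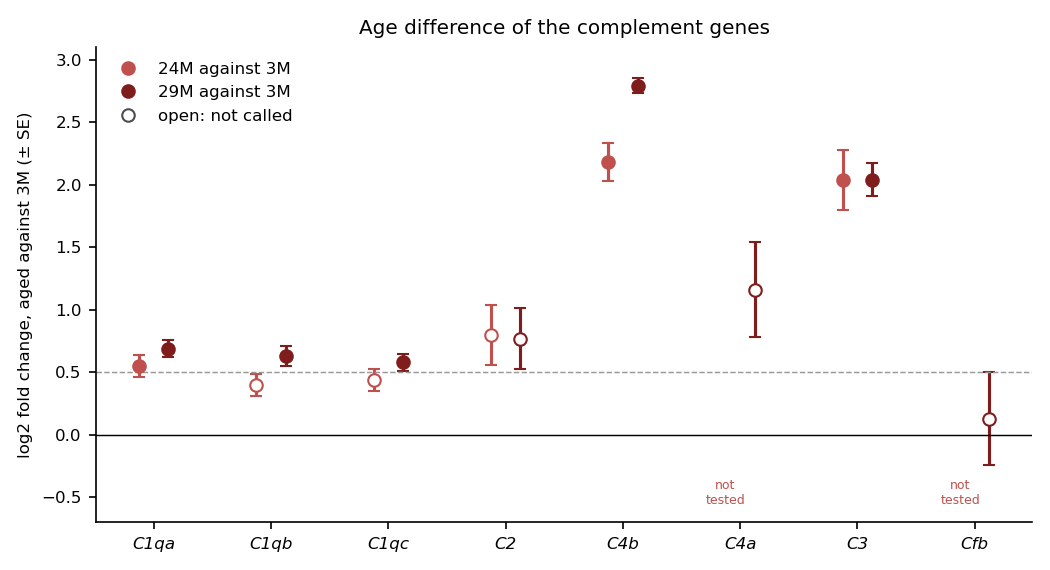
Log2 fold-change of each complement gene against 3M (± SE) at 24M and 29M; filled points were called higher, open points were not, and the dashed line marks the threshold of 0.5. C4b and C3 stand at 2.04 or more at both ages, the C1q chains between 0.40 and 0.69, and C4a and Cfb were not tested at 24M.

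Whether the changes differed between the ages was tested as the difference of both log2 fold-changes in 1 fit over 16055 genes. By edgeR 0 members passed, with 1 at an unadjusted p under 0.05, and DESeq2 also gave 0. That member was C4b, whose log2 fold-change was 0.61 larger at 29M than at 24M (95% interval 0.19 to 1.02, adjusted p = 0.394 by edgeR). For C3 the interval of the difference ran from -0.57 to 0.56, for C1qa from -0.12 to 0.41, for C1qb from -0.06 to 0.51 and for C1qc from -0.14 to 0.42. As read type changed together with age, these differences hold both.

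The order of levels per kilobase of transcript was the same in both 3M groups, with C1qb, C1qa and C1qc above C4b, then C3, C2, Cfb and C4a. C4b stood at 6 ± 1.71 CPM per kb at 3M single-end and at 27.1 ± 1.88 at 24M (SD, n = 5 each), still under C1qc. At 29M it had 48.5 ± 3.45 CPM per kb (n = 3), above C1qc with 42.2 ± 3.26 and under C1qb with 53 ± 3.15 and C1qa with 53.4 ± 4.02. The SDs of C4b overlap with those of C1qc below and of C1qb above it. When only the positions whose windows are found in no other gene were used as length, C4b at 29M had 59.2 ± 4.21 CPM per kb and came first, with C1qa at 59 ± 4.44 and C1qb at 58.3 ± 3.47 within its spread. These windows treat each read alone, whereas the reads of a pair are placed together. At 29M this length may therefore be too short for C4b and its level too high. C3 rose from 0.659 ± 0.285 to 2.65 ± 0.18 CPM per kb at 24M and from 0.861 ± 0.164 to 3.56 ± 0.317 at 29M. Its place above C2 and Cfb at 3M depends on the length used, as their levels per unshared position were higher (1.05 and 1.07 CPM per kb against 0.666 for C3 at 3M single-end).

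Microglia, the resident phagocytes of the brain, were followed through 14 marker genes, none of them a C1q gene. Their summed level was also higher in aged mice, at 591 to 623 CPM against 474 to 541 CPM at 24M and 587 to 607 CPM against 469 to 479 CPM at 29M. Of the 14 markers, 13 lay above 0 on the log2 scale at each age, the median log2 difference being 0.32 at 24M and 0.33 at 29M, and 1 was called at each age (P2ry12 and Tmem119). Single markers reached the values of the C1q chains, as Gpr34, a receptor of microglia, did at 24M with a log2 difference of 0.65 ± 0.20 that was not called (edgeR, adjusted p = 0.0644).

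Set against the summed markers, C4b rose from 6.36 ± 1.51 CPM per 100 CPM of microglia markers at 3M to 24.2 ± 1.37 at 24M (SD, n = 5 each), and from 8 ± 0.74 to 43.9 ± 2.4 at 29M (n = 3 each). C3 moved from 0.665 ± 0.266 to 2.26 ± 0.139 and from 0.933 ± 0.174 to 3.08 ± 0.224. On this scale C4b and C3 were the only members whose 24M samples all lay above all 3M samples, which held for 0.561% of all genes. The marker sum differed far less between the ages than C4b and C3 did, so their separation here follows largely from their CPM. For C1qa the ranges overlapped at 24M, with 9.18 to 12.2 against 7.01 to 9.85, and they overlapped for C1qb and C1qc as well. At 29M every aged sample lay above every young one for C1qa, C1qb, C1qc, C2, C4b and C3, where 1.7% of all genes did. The relative level of C1qa then was 9 to 9.94 against 7.08 to 7.43. Whether more microglia or more RNA per cell lay behind the C1q levels was not tested. Which cells made C4b and C3 was not tested either, so this scale is not their level per microglial cell.

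**Figure D4:**
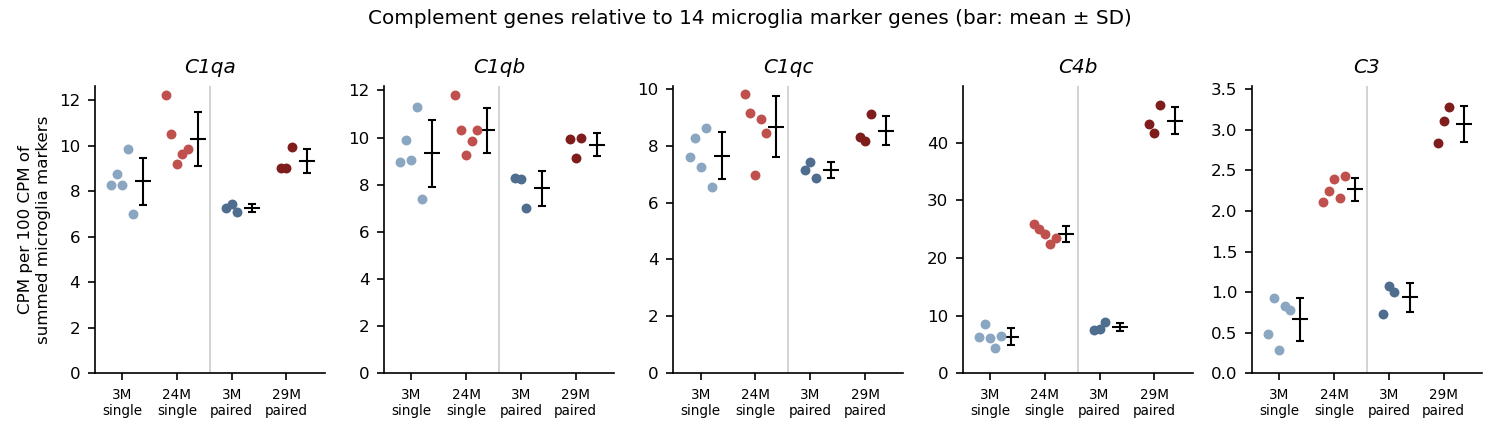
CPM of 5 complement genes per 100 CPM of the summed 14 microglia markers (axis from 0) in each sample, with the mean and SD beside the points. At 24M the C1q chains overlap with 3M while C4b (22.4 to 25.9) and C3 (2.11 to 2.43) do not, and at 29M all 5 genes lie above 3M.

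Other cells also express members and were followed by their markers. Of 12 astrocyte markers only Gfap, an intermediate filament of astrocytes, was called, and the median log2 difference of the list was 0.05 at both ages. S100b was higher under the fold threshold, by 0.49 at 24M and 0.39 at 29M (edgeR, adjusted p = 0.000172 and 0.00041). So were Aqp4 at 24M (0.40, edgeR, adjusted p = 0.0279) and Fgfr3 at 29M (0.16, edgeR, adjusted p = 0.0412). Of the 12 markers, 8 lay above 0 at 24M and 9 at 29M. The astrocyte sum was 6407 to 7034 CPM at 3M and 6917 to 7376 CPM at 24M, and 6009 to 6127 CPM against 6531 to 6576 CPM at 29M, the latter without overlap. Gfap is part of this sum, and its mean rose from 466 to 810 CPM at 29M. The sum without Gfap was not examined. Of 10 markers of border macrophages and monocytes, 7 were tested at 24M (median 0.53) and 3 at 29M (median 0.48). By edgeR 0 of them were called, with 3 and 0 at an unadjusted p under 0.05. Their sum was 8.5 to 13.4 CPM at 3M and 10.5 to 18.5 CPM at 24M, and 7.9 to 12 CPM against 10.9 to 17 CPM at 29M, far under the microglia sum. The 5 blood markers summed to 53.3 to 108 CPM at 3M and 76.3 to 544 CPM at 24M, with the highest value in 24M replicate 2, and to 70.6 to 83.7 CPM against 75.9 to 165 CPM in the second experiment. All 5 lay above 0 on the log2 scale at both ages (medians 1.32 and 0.79), and Hba-a1 and Alas2, of red blood cells, were called at 29M. Without 24M replicate 2, C1qa, C4b and C3 were still called at 24M, with log2 differences of 0.53, 2.15 and 2.03. Of 10 markers of meningeal fibroblasts, Lum and Ogn were called higher at 24M, where their sum was 337 to 611 CPM against 362 to 480 CPM at 3M. At 29M the sum was 370 to 444 CPM against 345 to 478 CPM. Of 10 endothelial markers Cldn5 was called lower at 24M, and the median log2 difference of 10 oligodendrocyte markers was 0.16 at 24M and 0.15 at 29M. The part of these cells in the levels of the members was not tested.

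Within groups, the C1q chains varied together across samples. After the mean of each group was taken away, the log2 CPM of C1qa over 16 samples correlated with C1qb at 0.907 and with C1qc at 0.884, and these were the 2 most similar of 11846 genes, followed by Vip, a neuropeptide of interneurons, at 0.822. C1qa varied little with C4b (0.0837) or C3 (0.259), and C3 with C4b at 0.281. The genes most like C4b were Wrn, a DNA helicase (0.897), Dock8 (0.868) and Cx3cr1, a chemokine receptor of microglia (0.854), and those most like C3 were Rbms1 (0.88), Igfn1 (0.877) and Naaa (0.872). Summed markers were compared for microglia, astrocytes, oligodendrocytes, choroid plexus, meningeal fibroblasts, border macrophages and blood, but not for neurons or endothelium. Among these sums, the deviations of C4b correlated most with microglia (0.756), whose sum includes Cx3cr1. Those of C3 correlated most with oligodendrocytes (0.735) and choroid plexus (0.701), and those of C2 with border macrophages (0.802) and meningeal fibroblasts (0.68). C1qa correlated at 0.516 with blood, 0.438 with border macrophages and 0.163 with microglia, and C1qc at 0.584, 0.635 and 0.246. For C1qb these values were lower, at 0.314, 0.287 and 0.0995. These values are descriptions over samples that share library preparation and sequencing within each experiment, and the highest of many genes are high by selection.

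Few of the remaining cascade genes could be tested. Of 22 genes for the C1 proteases, the lectin pathway, the alternative pathway and the terminal components, 8 had enough counts to be tested at 24M and 6 at 29M, and their median log2 differences were 0.19 and 0.26. At 24M, 1 was called, C1ra, a protease that C1q carries. It rose from 1.45 ± 0.152 to 2.5 ± 0.195 CPM (SD, n = 5 each, log2 fold-change 0.78 ± 0.14, adjusted p = 0.0119, edgeR). With the replicate number as a block C1ra was not called, so the count of other cascade genes was 0. At 29M edgeR called 0 of the 6 tested, with 1 at an unadjusted p under 0.05, and DESeq2 called 0. C1ra there had 2.36 ± 0.523 CPM at 3M and 3.87 ± 0.445 CPM at 29M (log2 fold-change 0.73 ± 0.21, adjusted p = 0.0874, edgeR). None was called lower at either age.

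Of 31 complement regulators and receptors, 28 were tested at 24M and 24 at 29M, and 3 and 4 were called higher, with medians of 0.07 and 0.03. Those called at both ages were Itgax and Itgb2, the chains of an integrin that binds cleaved C3. Itgax rose from 0.35 ± 0.181 to 1.45 ± 0.447 CPM at 24M and from 0.303 ± 0.191 to 2.52 ± 0.527 CPM at 29M (adjusted p = 0.0052 and 0.000732, edgeR). Itgb2 rose from 6.98 ± 1.93 to 10.3 ± 0.765 CPM at 24M and from 4.95 ± 0.696 to 10 ± 0.224 CPM at 29M (adjusted p = 0.0443 and 0.00112, edgeR).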

How the data were processed

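PolyA RNA of mouse hippocampus was sequenced as 17 libraries. Per the labels and methods, alignment was by STAR 2.3.0 to GRCm38.p2 and counting by HTSeq, and the authors deposited the raw counts per gene. Which annotation was counted on is not stated in the sources at hand. Entries that stand for no gene (not unique, 10.8% to 26.6% of the total, no feature, 8.59% to 15.9%, and ambiguous, 1.01% to 1.42%) stayed out of library sizes and tests. Not unique reads were fewer in paired-end libraries, which bears on C4a and C4b.

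Counts were tested in R 4.3.3 with edgeR 4.0.16 (TMM scaling, filterByExpr for low counts, quasi-likelihood test), each aged group against the 3M group of its read type, and the steps were tested on simulated data. SE was taken as the size of the log2 fold-change over the square root of F. 24M replicates 1 and 4 entered as their rounded mean. Symbols, coordinates and transcripts came from GENCODE M21, which named 36602 of 38355 identifiers. The lists hold 1 gene, C1rb, without an identifier. RefSeq promoters were read for 3 of the 8 members. Alternatives were DESeq2 1.42.0, its size factors in edgeR, 2 other filters, all groups in 1 fit, the replicate number as a block, the 24M pair kept apart or left out, no fold threshold, thinning to the smallest total, and each library left out. The genes named are the 8 members, cascade genes called at either age, regulators and receptors called at both ages, the 3 genes most similar to C1qa, C3 and C4b (mean of at least 5 CPM), and markers beside a result. The members, lists and tests were chosen with earlier results of these data known.

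Replicate numbers did not pair the samples, so the block was kept as an alternative. Counts limit the precision of C2, C4a and Cfb, and binomial intervals cover counting error only.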

Additional observations from a re-analysis of the deposited data

Results flagged for a closer look

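Over 36 sets of values (the level of each member and the summed level of each marker list in each group of 4 to 10 samples), 1 sample stood far from the others of its group, where 1 in 20 would give 1.8. It was the summed level of blood markers at 24M, where replicate 2 had 544 CPM against 76.3 to 159 CPM in the other samples (gap over range 0.822). No member of the complement set had such a sample in the single-end groups. The paired-end groups hold fewer samples than this check requires and were not examined for such samples.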

How the results depend on the processing

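Of the members, C4b and C3 were called at both ages under every alternative run, with log2 differences of 2.06 to 2.33 (24M) and 2.73 to 2.85 (29M) for C4b, and of 1.82 to 2.22 and 1.90 to 2.17 for C3. C1qa, C1qb and C1qc were called at 29M under all of them. At 24M the number of members called was 3, and 5 without a fold threshold. It was 4, with C2, under DESeq2, with all groups in 1 fit and with the 24M pair kept apart, and 2, without C1qa, with that pair left out. With each library left out it lay between 2 and 4, the loss being C1qa and the gain C2. At 29M it was 5 with each library left out. The number of members whose change differed between the ages was 0 throughout. Cfb at 29M turned from 0.13 to -0.10 without 3M paired-end replicate 3 and to -0.07 without 29M replicate 1, and reached 0.59 at most. C4a at 29M could not be fitted with the filter at 1 CPM or after thinning, where it was not tested. Other cascade genes called at 24M were 0 with the replicate block in place of 1, and at 29M 1 without a filter (C1ra) in place of 0; the cause was not tested. With the replicate block, 3 members were called at 24M and 5 at 29M, as without it. The correlation of samples with the same number was -0.137 to 0.0535 at 24M and -0.069 to 0.0965 at 29M, so the numbers do not pair the samples. Depth limits C2, C4a and Cfb, with at most 45 counts in a library.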
